A study of Homo sapiens with 24 samples.

Results

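SW13 is a human adrenal carcinoma line with little BRG1 and BRM, the interchangeable ATPases of the BAF (SWI/SNF) chromatin remodeler. Of the 24 RNA-seq libraries of the study, 4 make the comparison described here, SW13 cells with BRG1-K785R and ERG (2 libraries) and SW13 cells with GFP and ERG (2 libraries), chosen by their titles. BRG1-K785R is BRG1, the product of SMARCA4, with a lysine of its ATP-binding site changed to arginine, a change known to abolish ATPase activity. ERG, an ETS-family transcription factor that drives endothelial gene programs and is switched on by gene fusion in many prostate cancers, was present in all 4. The comparison asks how RNA levels differ with the ATPase-dead subunit in cells that carry ERG on either side.

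Each cell population received a V5-tagged ERG vector with blasticidin resistance and a second, puromycin-resistant vector for BRG1-K785R or the control protein. Titles name that control GFP and the protocol text names luciferase; the title's name is used. Virus was left on for 48 h, selection lasted 2 days, and the duplicates came from separate infections, selections and cultures. Groups used beside these were SW13 with GFP and an empty vector, with BRG1-K785R and an empty vector, and with wild-type BRG1 and ERG or an empty vector, 2 libraries each. All are lentiviral populations of 1 line. As background, BAF slides and evicts nucleosomes with energy from ATP, so a dead ATPase can still join the complex and be brought to chromatin without remodeling it. Wild-type BRG1 put back into BRG1-deficient tumour lines is known to raise matrix, adhesion and cell cycle inhibitor genes.

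Levels below are CPM (a gene's reads set to a common total for all libraries), given for replicates 1 and 2 in that order. A log2 change is the BRG1-K785R ERG level against GFP ERG unless another pair is named, with an approximate standard error (SE), and few reads can make that error too small. "Called" means an adjusted p under 0.05 in edgeR's two-sided quasi-likelihood test with Benjamini-Hochberg adjustment over 17018 genes, n = 2 libraries a group.

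The GFP ERG libraries held 24590885 and 23960454 counted reads and the BRG1-K785R ERG libraries 19754265 and 19782432. Replicates varied beyond counting error, with 2.29 (GFP ERG) and 6.52 (BRG1-K785R ERG) as their chi-square per degree of freedom. Of 12 adrenal cortex markers, CYP11B1, HSD3B2 and MC2R were at 0 in all 4 libraries, CYP11A1, CYP17A1, NR5A1 and STAR stayed under 1 CPM in each, and the 12 summed to 304 and 303 CPM with GFP and 336 and 312 with BRG1-K785R. Reads that resemble mitochondrial RNA but are assigned to nuclear copies (the MTRNR2L family and MIR6723) summed to 1183 and 1199 CPM with GFP and 3057 and 3502 with BRG1-K785R, so this sum moved with the groups, and its part in the results was not tested. In bulk RNA, fewer cells of a type and less RNA per cell cannot be told apart.

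SMARCA4, the gene of the construct, stood at 35.2 and 32.8 CPM with GFP and 1385 and 1350 with BRG1-K785R (40.2-fold, log2 change 5.33 ± 0.10). Construct and chromosomal reads cannot be separated in these counts. The 4 libraries followed their labels, and the BRG1-K785R level with ERG was below that without ERG (2395 and 2226 CPM). ERG stood at 1466 and 1589 CPM with GFP and 1573 and 1498 with BRG1-K785R, overlapping ranges with a log2 change of 0.01 ± 0.08 (adjusted p = 0.956). SMARCA4 and ERG were both higher with wild-type BRG1 and ERG than with BRG1-K785R and ERG. There SMARCA4 stood at 1904 and 2213 CPM (0.59 ± 0.08 from the mutant) and ERG at 1807 and 2099 (0.35 ± 0.08). The part of these levels in the comparisons with wild-type BRG1 was not tested. SMARCA2, which encodes BRM, had 5 and 2 reads with GFP and 11 and 7 with BRG1-K785R (log2 change 1.57 ± 0.64, adjusted p = 0.049). That call was lost without GFP ERG replicate 1, GFP ERG replicate 2 or BRG1-K785R ERG replicate 1 (adjusted p = 0.0563, 0.284 and 0.282), with no filter on low counts (0.0561), with the replicate number as a block (0.055), without both BRG1-K785R Empty libraries (0.052), without all 4 Empty libraries of GFP and BRG1-K785R (0.0542) and with DESeq2 (0.0867). The log2 change was 2.32, 1.09 and 1.19 without those 3 libraries in turn and 1.56 to 1.60 in the other 5 fits, and every library has few SMARCA2 reads.

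Many genes differed between BRG1-K785R and GFP beside ERG, mostly by modest amounts. Of 17018 genes tested, 6887 (40.5%) were called, 3483 (20.5%) higher and 3404 (20%) lower with BRG1-K785R, and the median log2 change over all genes was 0.01. A change of at least 2-fold was found for 551 of the higher and 472 of the lower genes. The levels of the 4 libraries did not overlap for 11863 genes (69.7%). EPAS1, KRT18, IFITM2, IFITM3, MYOF and APLN were among the 12 largest rises by the naming rule, which takes only genes without such overlap. ALDOC, PFKFB4 and PDK1, genes of sugar metabolism, and the immediate early gene EGR3 were among the 12 largest falls.

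EPAS1, which encodes the hypoxia-inducible factor subunit HIF-2alpha, had the largest rise after SMARCA4 among genes that reached a mean of 5 CPM. It stood at 0.364 and 0.335 CPM with GFP and 6.63 and 6.78 with BRG1-K785R (18.9-fold, log2 change 4.24 ± 0.26, adjusted p = 3.61e-14). With wild-type BRG1 and ERG it stood at 78.1 and 84.9 CPM, above both BRG1-K785R libraries. KRT18, the keratin of simple epithelia, stood at 1.54 and 1.59 and 16 and 15.1 CPM in the same order of groups (9.94-fold, 3.31 ± 0.19), and its partner KRT8 rose by 2.56 ± 0.25. KRT18 has many processed copies, so its reads are uncertain in part.

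MYOF, a membrane repair protein of the ferlin family, went from 3.2 and 2.72 to 21.9 and 20.8 CPM (7.2-fold, 2.85 ± 0.12). APLN, the gene of the secreted peptide apelin, went from 2.02 and 2.05 to 15.2 and 15.5 CPM (7.51-fold, 2.91 ± 0.17). ATP8B1, a phospholipid flippase, went from 2.14 and 2.13 to 16.1 and 15.9 CPM (7.48-fold, 2.90 ± 0.17). In each of these the BRG1-K785R libraries lay above both GFP libraries, which the naming rule requires of a rise, and below both wild-type BRG1 libraries. AFAP1L2, an actin-associated adaptor, rose 8.86-fold and ENC1, an actin-binding adaptor of ubiquitin ligases, 4.69-fold. The amine oxidases AOC3 (8.34-fold) and AOC2 (8.31-fold) are alike neighbours that may share reads.

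ALDOC, the brain-type aldolase, had the largest fall among the genes the naming rule takes, which leaves out small RNA names such as MIR210HG. It stood at 17.8 and 17.1 CPM with GFP and 0.99 and 1.19 with BRG1-K785R (15.9-fold lower, -3.99 ± 0.19, adjusted p = 7.57e-17). PFKFB4, a kinase and phosphatase that sets the level of a glycolytic activator, went from 69.1 and 70.4 to 10.8 and 10.2 CPM (6.64-fold lower, -2.73 ± 0.10). PDK1, which shuts pyruvate out of the mitochondrial cycle, went from 67.4 and 67.1 to 14.3 and 12 CPM (5.12-fold lower, -2.36 ± 0.11). None of the 3 overlapped between the groups, which the naming rule requires. HRC, a calcium-binding protein of muscle reticulum, was 9.75-fold lower, HRNR, a filaggrin-like skin protein, 4.81-fold, the cadherin CDH18 4.54-fold and FAXDC2 4.54-fold. UPK1A, a urothelial plaque protein, was 6.47-fold lower, and its antisense gene fell too, so that without a stated strand setting the 2 cannot be told apart. SSPO (4.3-fold), AGBL2 (4.16-fold) and the mTOR inhibitor gene DDIT4 (4.09-fold) completed the 12 largest falls.

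**Figure D1:**
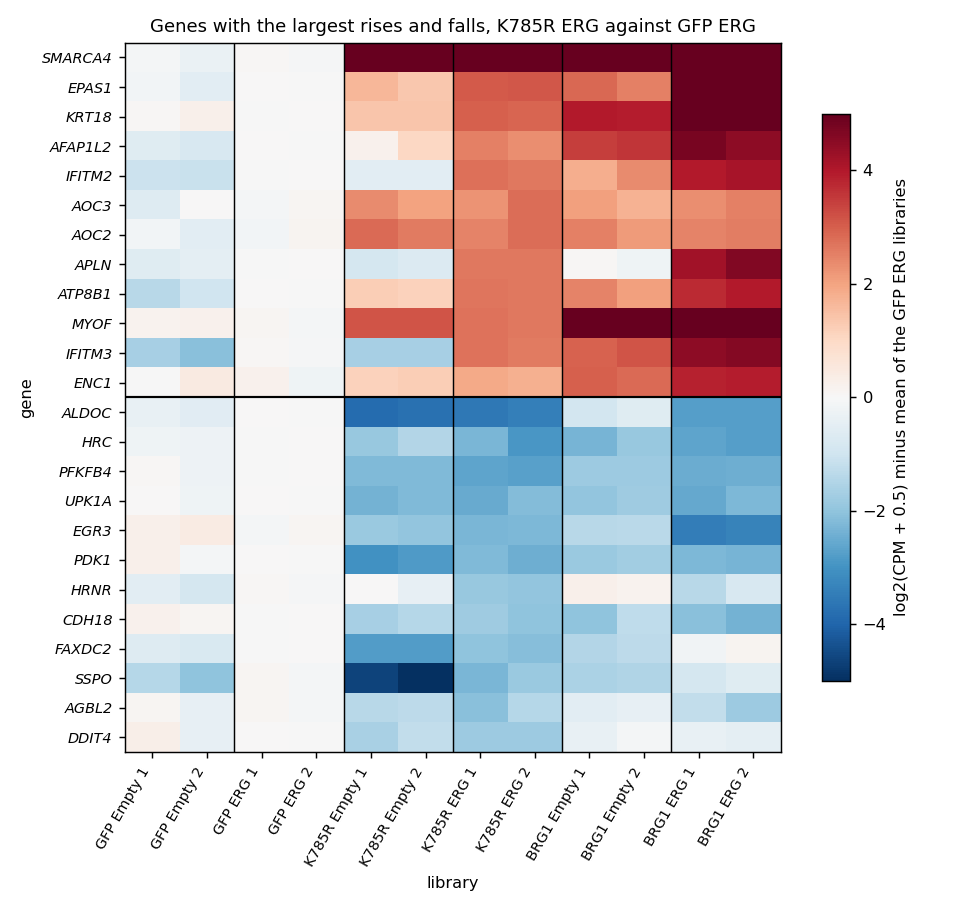
Levels of the 12 largest rises (top) and 12 largest falls (bottom) by the naming rule in the 12 SW13 libraries. Rows are genes, columns are libraries, and colour is log2(CPM + 0.5) minus the mean of the GFP ERG libraries, cut at the ends of the scale. BRG1-K785R ERG columns are uniformly red above the line and blue below it.

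Glycolysis and hypoxia genes fell together. As background, hypoxia-inducible factors are pairs of an oxygen-sensitive alpha subunit and ARNT that bind DNA and switch on glucose uptake, glycolysis, mitophagy and collagen hydroxylation. In oxygen the alpha subunit is hydroxylated by the EGLN enzymes and handed to VHL for destruction. All 27 members were tested, and 22 were lower, 1 higher and 4 not called. That is 81.5% lower where 20% of all genes tested were, with a median log2 change of -1.03 against 0.01 over all genes, also with CA9 (no reads in 1 group) at its bound.

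The promoters of such genes are shown because ACGTG, or its complement CACGT, is one form of the short core of the hypoxia response element. The core can also read GCGTG, which was not searched for and occurs in the PFKFB4 window below. RefSeq windows of 250 bases before the start (GRCh38.p14, 5′ to 3′ on the gene's strand) are printed with each match in capitals. They are of 3 genes that fell and hold ACGTG and of PFKFB4, which fell and holds no ACGTG on either strand.
ALDOC, chr17:28576896-28577145, minus strand: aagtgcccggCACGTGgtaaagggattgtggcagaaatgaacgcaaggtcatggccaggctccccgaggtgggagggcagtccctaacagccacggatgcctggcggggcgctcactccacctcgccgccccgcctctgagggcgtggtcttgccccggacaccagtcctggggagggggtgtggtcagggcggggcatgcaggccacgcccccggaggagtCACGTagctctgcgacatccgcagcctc
BNIP3, chr10:131981924-131982173, minus strand: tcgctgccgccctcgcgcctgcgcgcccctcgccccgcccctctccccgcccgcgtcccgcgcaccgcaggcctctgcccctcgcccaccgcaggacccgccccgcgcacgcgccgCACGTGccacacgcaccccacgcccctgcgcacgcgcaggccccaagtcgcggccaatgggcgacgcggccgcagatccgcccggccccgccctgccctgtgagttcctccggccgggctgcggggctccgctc
PGK1, chrX:78103998-78104247, plus strand: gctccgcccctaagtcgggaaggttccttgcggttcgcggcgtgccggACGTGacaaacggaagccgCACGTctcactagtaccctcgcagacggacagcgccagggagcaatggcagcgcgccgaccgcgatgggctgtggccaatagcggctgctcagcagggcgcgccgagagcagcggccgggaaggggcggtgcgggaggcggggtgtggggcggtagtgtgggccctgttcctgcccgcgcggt
PFKFB4, chr3:48556804-48557053, minus strand: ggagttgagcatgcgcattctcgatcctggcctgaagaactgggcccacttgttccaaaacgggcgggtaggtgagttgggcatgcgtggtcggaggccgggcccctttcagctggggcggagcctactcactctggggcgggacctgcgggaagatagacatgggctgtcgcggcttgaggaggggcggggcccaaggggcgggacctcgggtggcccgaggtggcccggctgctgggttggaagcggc
The run CACGTG in ALDOC and BNIP3 matches on both strands and is also an E-box, the site of MYC and its relatives. PGK1 holds 1 match on each strand, 202 and 183 bases before its start. Of 35116 windows in the table, 18.5% hold a match, as do 27.9% of the 11755 tested genes with a window. Among called genes 30.8% of those lower and 27% of those higher have one, and among the lower members of the glycolysis and hypoxia list 14 of 21 (66.7%). That list was made of genes known for hypoxia and glycolysis, so its share cannot tie the letters to the fall. Its members that did not fall were not counted. A match describes these letters and is no evidence of binding.

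Glucose entry and the upper steps of glycolysis fell. SLC2A1, the glucose transporter GLUT1, stood at 79 and 76.9 CPM with GFP and 28.6 and 22.6 with BRG1-K785R (3.04-fold lower, -1.61 ± 0.11). HK2, the hexokinase that traps glucose, went from 111 and 115 to 46.4 and 39.1 CPM (2.64-fold lower, -1.40 ± 0.08). Neither overlapped between the groups, as was so for 69.7% of all genes tested. In the lower steps, PGK1, which makes ATP by phosphoglycerate transfer, went from 848 and 885 to 359 and 299 CPM (2.63-fold lower, -1.40 ± 0.08). LDHA, which turns pyruvate into lactate, went from 1047 and 1084 to 427 and 346 CPM (2.75-fold lower, -1.46 ± 0.08). GAPDH, often used as a reference gene, also fell, from 2260 and 2328 to 1484 and 1279 CPM (-0.73 ± 0.07).

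Other branches of the hypoxia response fell with glycolysis. BNIP3, a mitophagy receptor, went from 423 and 439.7 to 143 and 106 CPM (3.46-fold lower, -1.79 ± 0.10), and P4HA1, a collagen prolyl hydroxylase, from 308 and 315 to 117 and 96.3 CPM (2.92-fold lower, -1.55 ± 0.08). CA9, the carbonic anhydrase much used as a hypoxia marker, had 25 reads over both GFP libraries and 0 with BRG1-K785R, at least 3.51-fold lower at a floor of 3 counts a library. In a second list of 17 genes known as hypoxia-induced, 16 were lower and RORA was not called (median -0.89), where 20% of all genes tested were lower. It was written after values had been seen, so its count is no independent support. MIR210HG, the host RNA of a hypoxia-induced microRNA, went from 24.9 and 23.4 to 1.53 and 1.48 CPM in that list, and PDK3, a relative of PDK1, from 90.3 and 90.8 to 32.4 and 29.6 CPM.

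The list was not uniform. VEGFA, the angiogenic growth factor and a classical hypoxia target, stood at 35.3 and 35.8 CPM with GFP and 36.5 and 41.1 with BRG1-K785R (0.13 ± 0.09, adjusted p = 0.256). The vasodilator peptide gene ADM (-0.24 ± 0.12, adjusted p = 0.115), PFKFB3 and EGLN3 were not called either. NDRG1, at 1.38 and 1.3 and 2.57 and 2.2 CPM, was the 1 member called higher, and without GFP ERG replicate 2 or without BRG1-K785R ERG replicate 1 its adjusted p was 0.0703 or 0.0936.

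Genes of the oxygen-sensing machinery went both ways. Of 11 hypoxia-inducible factor subunits and regulators, a list written after values had been seen, 2 were higher, 4 lower and 5 not called (18.2% and 36.4%, against 20.5% and 20% of all genes tested). HIF1A, the other main alpha subunit, stood at 92.2 and 93.4 CPM with GFP and 128 and 117 with BRG1-K785R, a small rise (0.40 ± 0.08, adjusted p = 9.25e-05), and EPAS1 rose as above. EGLN1, the main oxygen sensor and itself a hypoxia target, fell from 127 and 119.8 to 78.6 and 71.2 CPM (-0.72 ± 0.08). VHL did not pass the test (0.09 ± 0.07, adjusted p = 0.355). RNA levels of HIF1A and EPAS1 say nothing of their proteins, which oxygen controls.

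The list was lower without ERG as well. In the 4 libraries with empty vector in place of ERG, none shared with the main comparison, 20 of 27 members were lower with BRG1-K785R and 1 higher (median -0.99), where 26.4% of genes tested were lower and 32.3% higher. Wild-type BRG1 with ERG left PGK1 at 339 and 321 CPM and LDHA at 381 and 327, overlapping those of BRG1-K785R with ERG. The log2 differences of BRG1 from BRG1-K785R were 0.00 ± 0.08 for PGK1 and -0.13 ± 0.08 for LDHA. Between those 2 groups, which share the BRG1-K785R ERG libraries with the main comparison, 9 of the 27 members were higher with wild-type BRG1, 3 lower and 15 not called, where 24.3% of genes tested were higher and 22.6% lower. ALDOC (2.14 and 2.19 CPM, 0.98 ± 0.26, adjusted p = 0.00204), SLC2A1 (0.65 ± 0.11) and P4HA1 (0.61 ± 0.08) were among the 9.

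**Figure D2:**
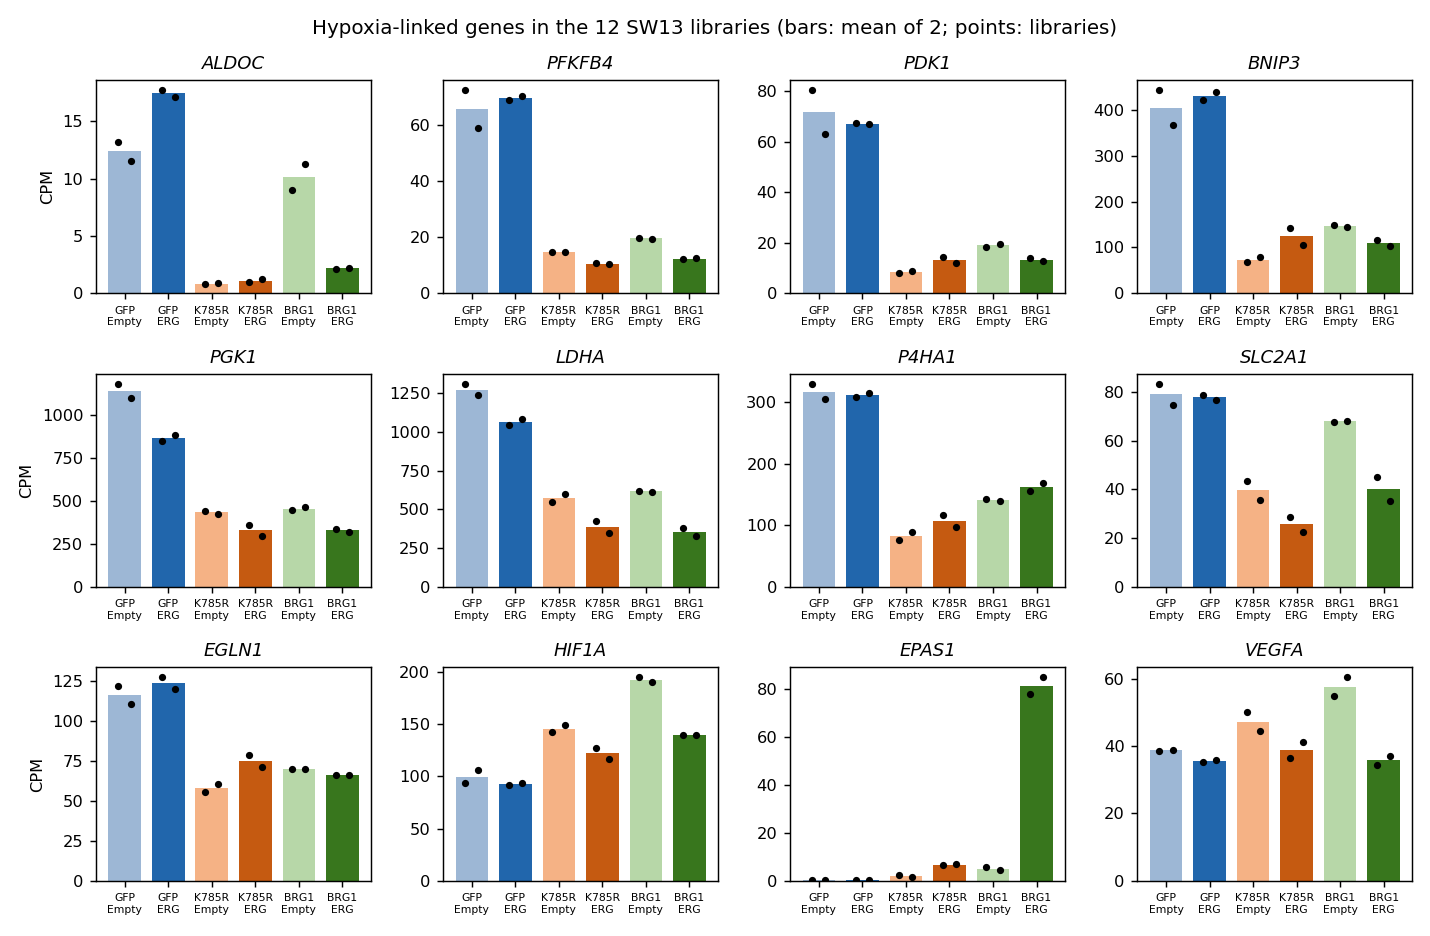
CPM of 12 hypoxia-linked genes in the 6 SW13 groups. Bars are means of 2 libraries, points are the libraries and each axis starts at 0. From ALDOC to EGLN1 the BRG1-K785R bars lie below the GFP bars with and without ERG, HIF1A and EPAS1 lie above them, and VEGFA with ERG differs little.

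Genes that BRG1 is reported to restore in BRG1-deficient lines rose with the mutant, to low levels in part. With BRG1-K785R and ERG, 10 of 12 were higher, none lower and 2 not called (83.3%, where 20.5% of all genes tested were higher), with a median log2 change of 1.30. SPARC, a collagen-binding matrix protein, went from 0.728 and 1.04 to 4.65 and 3.53 CPM (2.20 ± 0.24, adjusted p = 1.21e-08). CDKN1A, the cell cycle inhibitor p21, went from 4.37 and 3.43 to 9.75 and 9.93 CPM (1.33 ± 0.17). TIMP3, a metalloprotease inhibitor, went from 0.0809 and 0.251 to 1.44 and 1.29 CPM (3.01 ± 0.46). Groups did not overlap for any of the 3, as for 69.7% of all genes tested. VIM, the intermediate filament of mesenchymal cells, was not called (53.3 and 55.4 and 59.3 and 54.7 CPM, 0.07 ± 0.08, adjusted p = 0.524).

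Wild-type BRG1 went much further on the same list. SMARCA4 and ERG RNA were higher in those libraries as well, as given above. All 12 members were higher with BRG1 than with BRG1-K785R beside ERG, where 24.3% of all genes tested were, with a median log2 difference of 4.04. SPARC reached 1418 and 1660 CPM with wild-type BRG1 (8.56 ± 0.13 above the mutant), TIMP3 23 and 27.5 CPM (4.21 ± 0.20) and CDKN1A 20.5 and 23.8 CPM (1.17 ± 0.14). Over all genes tested, 7992 (47%) were called, 4138 higher and 3854 lower with BRG1 than with BRG1-K785R beside ERG, 1465 and 308 of them by at least 2-fold. The 4 largest of those rises by the rule, SAMD9L, XAF1, GJA5 and APOL3, had no more than 1 read in the BRG1-K785R ERG libraries and stood at 33.5 and 33.5, 15.3 and 15.6, 13.7 and 16.8 and 71.6 and 74.2 CPM with BRG1. The 4 largest falls were TERT, the telomerase subunit (-2.26 ± 0.16), SIGLEC10 (-2.11 ± 0.23), RGS4 (-1.84 ± 0.12) and PI15 (-1.81 ± 0.08).

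Interferon-stimulated genes went both ways under the mutant. Of 36, all tested, 12 were higher, 6 lower and 18 not called (33.3% and 16.7%, against 20.5% and 20% of all genes tested), with a median log2 change of 0.22. The lower share is below that of all genes. The rises were led by the IFITM genes, membrane proteins that block virus entry. IFITM3 went from 4.13 and 3.68 to 28.6 and 26.1 CPM (6.99-fold, 2.80 ± 0.13) and IFITM2 from 1.25 and 1.34 to 11.5 and 10.6 CPM (8.49-fold, 3.09 ± 0.20). They are near-identical neighbours, so that reads may be split between them.

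Lower members included an RNA sensor and a ubiquitin-like modifier, while IFIH1, another RNA sensor, and HERC5, the ligase of ISG15, were among the 12 higher. DDX58, the RNA sensor RIG-I, fell from 24 and 25.5 to 13.9 and 12 CPM (-0.94 ± 0.10), IFI6, a mitochondrial survival protein, from 18.7 and 17.5 to 10.2 and 7.88 CPM (2-fold lower), and the modifier ISG15 from 73.1 and 71.7 to 51.8 and 43 CPM (-0.61 ± 0.10). With wild-type BRG1 and ERG, 35 of 36 were higher than with the mutant, where 24.3% of all genes tested were. IFITM3 stood at 97.8 and 107 CPM there, above both mutant libraries (1.90 ± 0.09). DDX58 (137 and 128 CPM), IFI6 (629 and 581 CPM) and ISG15 (523 and 429 CPM), each lower with the mutant than with GFP, lay above both groups with BRG1.

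The IFITM3 promoter is shown because it holds the interferon response letters, GAAA and GAAA with any 2 bases between, at 2 places (RefSeq, GRCh38.p14, 250 bases before the start, matches in capitals, 52 and 35 bases before the start).
IFITM3, chr11:320861-321110, minus strand: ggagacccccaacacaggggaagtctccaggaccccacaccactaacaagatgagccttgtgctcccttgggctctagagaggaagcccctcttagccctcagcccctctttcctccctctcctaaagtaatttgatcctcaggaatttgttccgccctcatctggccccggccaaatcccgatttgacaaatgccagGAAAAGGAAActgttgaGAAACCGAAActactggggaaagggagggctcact
Searched on either strand, the pair is in 3.02% of all windows, in 3.45% of the higher genes with a window and in 3.6% of the lower ones.

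**Figure D3:**
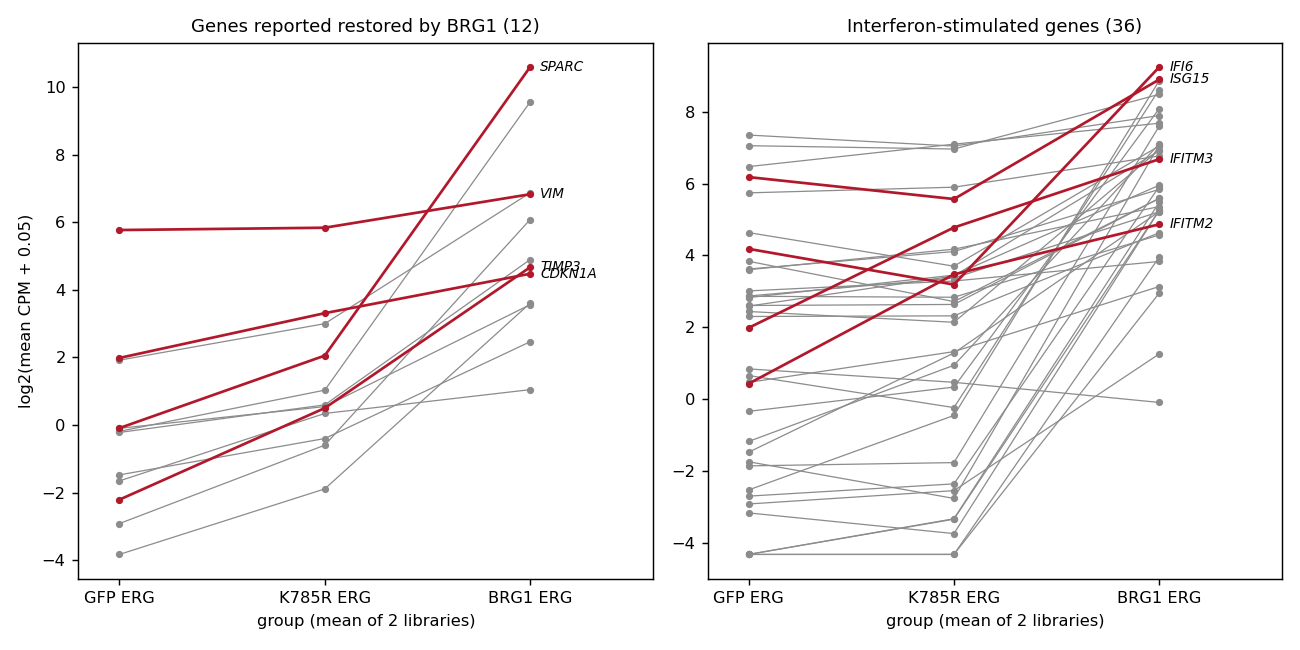
Mean CPM (2 libraries, log2 scale with 0.05 added) with GFP, BRG1-K785R and BRG1, all with ERG, for the 12 genes reported restored by BRG1 (left) and the 36 interferon-stimulated genes (right). Each line is a gene, with 4 in each panel in red. On the left most lines climb at both steps. On the right 12 genes were called higher and 6 lower at the step from GFP to BRG1-K785R, and 35 higher at the step from BRG1-K785R to BRG1.

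Immediate early genes, which signalling through ERK and calcium switches on within minutes, went both ways. Of 19 tested, 3 were higher, 7 lower and 9 not called (15.8% and 36.8%, against 20.5% and 20% of all genes tested). EGR1, a zinc finger factor, fell from 194 and 241 to 58.6 and 66.5 CPM (3.48-fold lower, -1.80 ± 0.10) and its relative EGR3 from 13.4 and 15.5 to 2.57 and 2.63 CPM (5.55-fold lower). JUN, an AP-1 subunit, rose from 6.15 and 6.44 to 24.1 and 27.1 CPM (4.07-fold, 2.02 ± 0.12), and the stress factor ATF3 from 0.162 and 0.335 to 2.52 and 3.01 CPM (3.46 ± 0.37). EGR1 and JUN moved in opposite directions within 1 class of genes. Wild-type BRG1 with ERG had EGR1 at 19.4 and 22 CPM and JUN at 80.4 and 88.8, further along in both directions (-1.60 ± 0.11 and 1.72 ± 0.09 from the mutant). MYC was not called (0.06 ± 0.07, adjusted p = 0.501).

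ERK feedback genes, which the ERK pathway turns on to restrain itself, had 4 of 13 higher and 6 lower (30.8% and 46.2%, against 20.5% and 20% of all genes tested). DUSP6, an ERK phosphatase, fell from 711 and 739 to 504 and 491 CPM (-0.54 ± 0.07), and SPRED2 fell by -0.62 ± 0.07, while SPRY4 rose from 24.2 and 27 to 42.4 and 49.4 CPM (0.84 ± 0.09). In the ETS family, to which ERG belongs, 4 of 22 tested members were higher, a share of 18.2% near that of all genes, and 7 lower (31.8%). ETV4 fell from 87.4 and 88.1 to 50.5 and 49.4 CPM (-0.81 ± 0.08), ETV1 from 153 and 154 to 92.6 and 86.8 CPM (-0.77 ± 0.07) and ETV5 from 204 and 203 to 164 and 159.6 CPM (-0.33 ± 0.07), 3 members of 1 subfamily. The higher count was 0 without GFP ERG replicate 1 and 2 without either BRG1-K785R ERG library.

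Endothelial genes, the program ERG supports in blood vessels, were mostly not called with the mutant. Of 21 tested, 4 were higher, 2 lower and 15 not called, which is 19% higher and 9.52% lower where 20.5% and 20% of all genes were. Without GFP ERG replicate 1 these counts were 2 and 1, and 1 was lower without either BRG1-K785R ERG library. KDR, the main VEGF receptor, stood at 2.63 and 3.43 CPM with GFP and 2.82 and 2.72 with BRG1-K785R (-0.13 ± 0.25, adjusted p = 0.716), and TEK, the angiopoietin receptor, was not called (0.13 ± 0.10). ESAM, a junction protein, rose by 0.95 ± 0.24. Beside wild-type BRG1, KDR stood at 20 and 27.1 CPM. There 15 of 21 members were higher than with the mutant and 2 lower, where 24.3% and 22.6% of all genes tested were. Of 19 tested genes known as abundant in prostate tumours with ERG, 4 were higher (2 without BRG1-K785R ERG replicate 2) and 4 lower with BRG1-K785R, 21.1% each and near the shares of all genes, PLAU, the urokinase gene, among the rises (5.02 and 4.18 to 14.6 and 12.8 CPM, 1.57 ± 0.13).

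Stress and chaperone genes rose as groups. Of 22 ATF4 and unfolded protein response genes, 15 were higher, 3 lower and 4 not called (68.2% against 20.5%), with a median of 0.33. ATF4, the master factor, rose from 101 and 98.4 to 184 and 196 CPM (0.93 ± 0.08), DDIT3, the factor CHOP, from 17.3 and 18 to 34 and 33.7 CPM (0.94 ± 0.10), and HERPUD1, an adaptor of protein disposal at the reticulum, from 19.8 and 19.7 to 34.4 and 34 CPM (0.79 ± 0.09). DDIT4, listed here and also known as hypoxia-induced, went the other way, from 9.06 and 8.86 to 2.18 and 2.2 CPM (-2.03 ± 0.21). Of 13 heat shock chaperones, 11 were higher and 1 lower (84.6% against 20.5%, median 0.55). HSPH1 rose from 209 and 219 to 377 and 344 CPM (0.75 ± 0.08) and HSP90AA1 from 3451 and 3562 to 6009 and 5387 CPM (0.70 ± 0.07). HSPA1A (0.68 ± 0.08) shares reads with the near-identical HSPA1B. HSPB1, the small heat shock protein HSP27, fell from 195 and 205 to 132 and 122 CPM (-0.65 ± 0.07). The polyamine catabolism genes SMOX (3.4 and 3.97 to 16.6 and 14.7 CPM) and SAT1 (11.1 and 10.6 to 35 and 36.7 CPM) also rose, by 2.08 ± 0.15 and 1.72 ± 0.11; they were picked after their values were seen.

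Of 30 DNA replication genes, 10 were higher (6 without GFP ERG replicate 2) and 6 lower, 33.3% and 20% against 20.5% and 20% of all genes tested, so the lower share equals that of all genes. In that list E2F1, the S-phase factor, rose from 58.6 and 56.6 to 90.3 and 98.7 CPM (0.71 ± 0.08) and CCNE2, a cyclin of S-phase entry, from 14.8 and 14 to 23.1 and 22.6 CPM (0.67 ± 0.10). Of 26 mitotic genes, 1 was higher and 9 lower (3.85% and 34.6%), MKI67 going from 752 and 730.3 to 519.6 and 537 CPM (-0.49 ± 0.07). Without GFP ERG replicate 1 only 2 were lower and without BRG1-K785R ERG replicate 2 only 4. Of 11 CDK inhibitors and D-type cyclins, 6 were higher and 1 lower (54.5% and 9.09%), with 3 higher without GFP ERG replicate 1 or BRG1-K785R ERG replicate 1. CDKN2B, the inhibitor p15, rose from 11.8 and 12.2 to 19.2 and 21.2 CPM (0.75 ± 0.10), beside CDKN1A above. Wild-type BRG1 took MKI67 further down, to 375 and 395 CPM (-0.46 ± 0.07 from the mutant), and CDKN1A further up.

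Of 27 tested epithelial junction and keratin genes, 9 were higher and 4 lower (33.3% and 14.8%, against 20.5% and 20% of all genes tested). KRT8 went from 0.85 and 0.711 to 4.6 and 4.68 CPM, the tight junction adaptor CGN from 46.8 and 48 to 83.6 and 88.5 CPM (0.86 ± 0.07), and the desmosome linker DSP from 0.283 and 0.669 to 2.62 and 2.87 CPM (2.52 ± 0.32). JUP, the junctional catenin plakoglobin, fell from 103 and 102 to 50.1 and 45 CPM (-1.11 ± 0.07). The 4 epithelial markers summed to 4.17 and 3.39 CPM with GFP and 23.1 and 21.6 with BRG1-K785R. Of the latter sums KRT18, whose reads are uncertain in part, made 16 and 15.1 CPM and KRT8 4.6 and 4.68. CDH1 rose as well, and EPCAM was not called (1.5 and 0.836 CPM with GFP, 1.24 and 0.525 with BRG1-K785R). Of 20 tested neuronal and neuroendocrine genes, 4 were higher (2 without either GFP ERG library), a share of 20% near that of all genes, and 9 lower (45%). SYP, a synaptic vesicle protein, fell from 82.9 and 84.5 to 42.9 and 39.6 CPM (-1.02 ± 0.08), CHGB, a granin of secretory vesicles, from 50.2 and 54.4 to 22.6 and 20.8 CPM (-1.27 ± 0.09), and MAP2, a dendritic microtubule protein, from 2159 and 2193 to 1198 and 1128 CPM (-0.90 ± 0.07). All 3 were non-overlapping, as were 69.7% of all genes tested. All 3 were lower still with wild-type BRG1 (19.9 and 16.8, 15 and 15.1 and 934 and 987 CPM). ENO2, an enolase and so a glycolytic enzyme, was also among the 9 lower. Of 3 neural markers tested, 1 (SYP) was lower and 2 were not called. The granin gene CHGA stood at 0.769 and 0.794 CPM with GFP and 1.44 and 0.812 with BRG1-K785R.

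Of 27 mesenchymal and matrix genes 2 were higher and 8 lower (7.41% and 29.6%, against 20.5% and 20% of all genes tested). COL3A1, a fibrillar collagen, fell from 457 and 459 to 235 and 231 CPM (-0.98 ± 0.08). Of 18 matrix proteases and inhibitors, 8 were higher and 4 lower (44.4% and 22.2%). SERPINE2, a protease inhibitor, rose from 3.52 and 3.35 to 10.5 and 8.88 CPM (1.49 ± 0.14), while MMP10, a metalloprotease, fell from 164 and 165 to 94.6 and 80.4 CPM (-0.91 ± 0.08). In cholesterol synthesis and uptake, 14 of 26 tested genes were higher and 5 lower (53.8% and 19.2%, median 0.25). MVD, which makes isopentenyl diphosphate, rose from 30.8 and 28.9 to 58 and 58.2 CPM (0.96 ± 0.10), and IDI1, the next enzyme, from 63.2 and 67.1 to 116 and 108 CPM (0.78 ± 0.09). TM7SF2, a sterol reductase, fell from 59.2 and 59.8 to 29 and 28.5 CPM (-1.05 ± 0.09), as did SREBF1, the lipogenic factor, from 156 and 139 to 77 and 86.6 CPM (-0.85 ± 0.08).

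Of 31 tested BAF subunits, the remodeler itself, 4 were higher, 6 lower and 21 not called. The lower share, 19.4%, is near the 20% of all genes tested and the higher one is 12.9% against 20.5%, and SMARCA4 and SMARCA2 are 2 of the 4 higher. That number was 2, 1 and 2 without GFP ERG replicate 1, GFP ERG replicate 2 and BRG1-K785R ERG replicate 1, and 8 with library totals as the scale. The core subunit SMARCB1 stood at 53.6 and 54.6 CPM with GFP and 54.3 and 50.8 with BRG1-K785R (-0.04 ± 0.08, adjusted p = 0.712). ARID1A, the DNA-binding subunit of canonical BAF, fell from 306 and 321 to 209.9 and 239 CPM (-0.48 ± 0.07), and ACTB, whose actin is both a BAF subunit and the cytoskeleton, from 2751 and 2789 to 2028 and 1856 CPM (-0.51 ± 0.07). Of 28 other remodelers and Polycomb genes, 3 were higher (1 without GFP ERG replicate 1 or BRG1-K785R ERG replicate 1) and 10 lower (10.7% and 35.7%). EZH2, the Polycomb methyltransferase that opposes BAF, rose from 100.4 and 93.7 to 156 and 158 CPM (0.69 ± 0.07). The Polycomb genes EED and SUZ12 were not called. SMARCA1 (log2 change -0.59), EP400 (-0.64) and KDM6B (-0.73) were among the 10 lower.

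**Figure D4:**
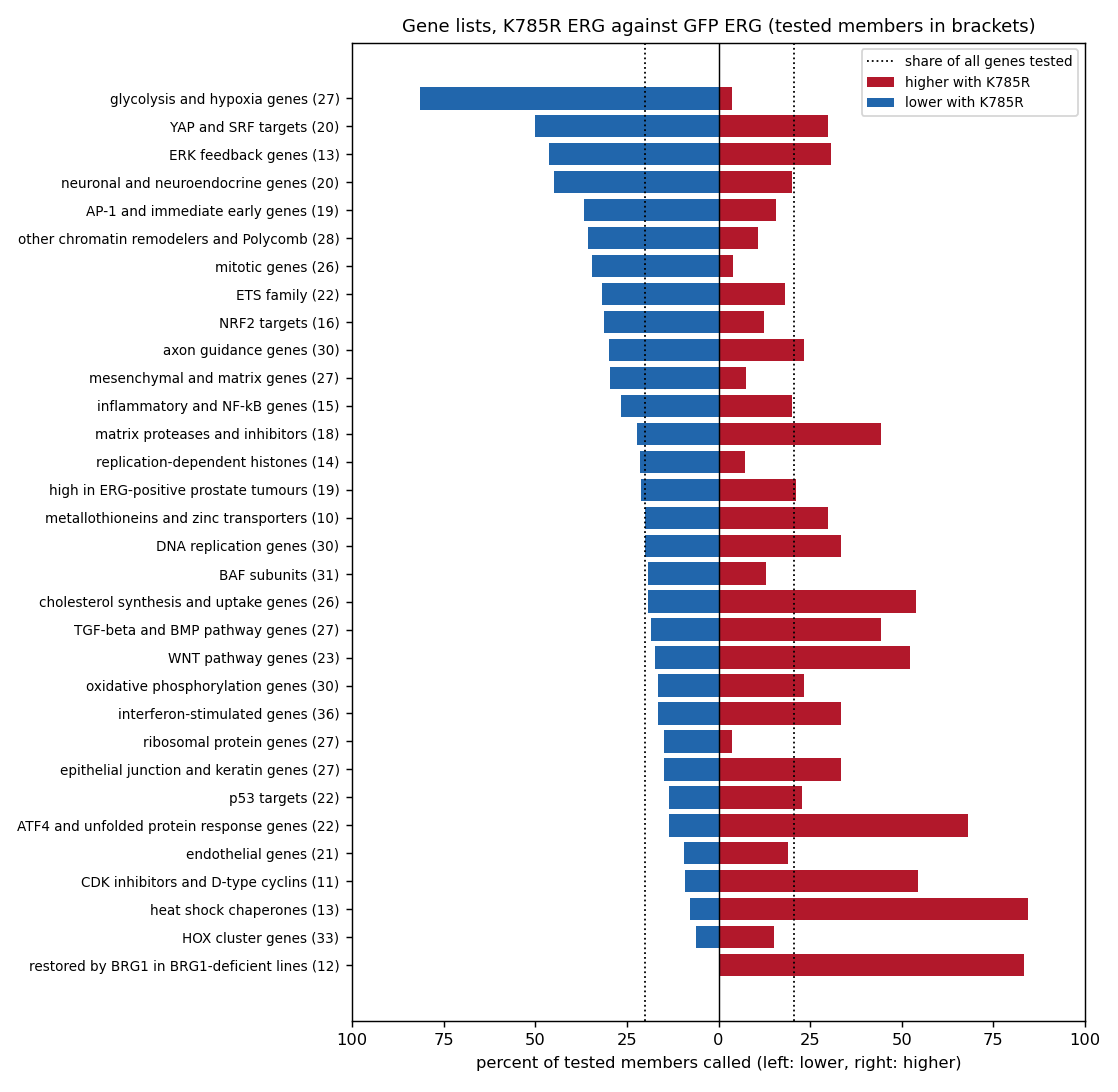
Share of tested members called higher (right) and lower (left) with BRG1-K785R beside ERG, for 32 gene lists with the number tested in brackets. Dotted lines mark the shares of all genes tested, 20.5% higher and 20% lower. Glycolysis and hypoxia genes reach 81.5% on the left, and heat shock chaperones and BRG1-restored genes reach 84.6% and 83.3% on the right.

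The same mutant was also set against GFP in cells with empty vector in place of ERG, 4 other libraries. There 9983 genes (58.7%) were called, 5491 (32.3%) higher and 4492 (26.4%) lower with BRG1-K785R. Of the 3483 genes higher with ERG, 2155 (61.9%, and 39.2% of those higher without ERG) were higher in both, and 320 were lower without ERG. Of the 3404 lower with ERG, 1792 (52.6%, and 39.9% of those lower without ERG) were lower in both, and 570 were higher without ERG. Over all 17018 genes tested, 65.4% had the same sign without ERG (Pearson's r = 0.469 across genes, which are not independent replicates). The share was 75% (r = 0.653) over the genes called with ERG and 87.7% (r = 0.711) over the 1023 of them at 2-fold or more, sets chosen by the change with ERG. ALDOC, at 13.2 and 11.5 CPM with GFP and 0.744 and 0.84 with BRG1-K785R, fell without ERG too (-3.96 ± 0.21), as did EGR1 (-1.75 ± 0.10). By the rule the largest rises without ERG were SRPX2, SMARCA4, RMRP and ATF3 and the largest falls ALDOC, SSPO, MALAT1 and RAB26.

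**Figure D5:**
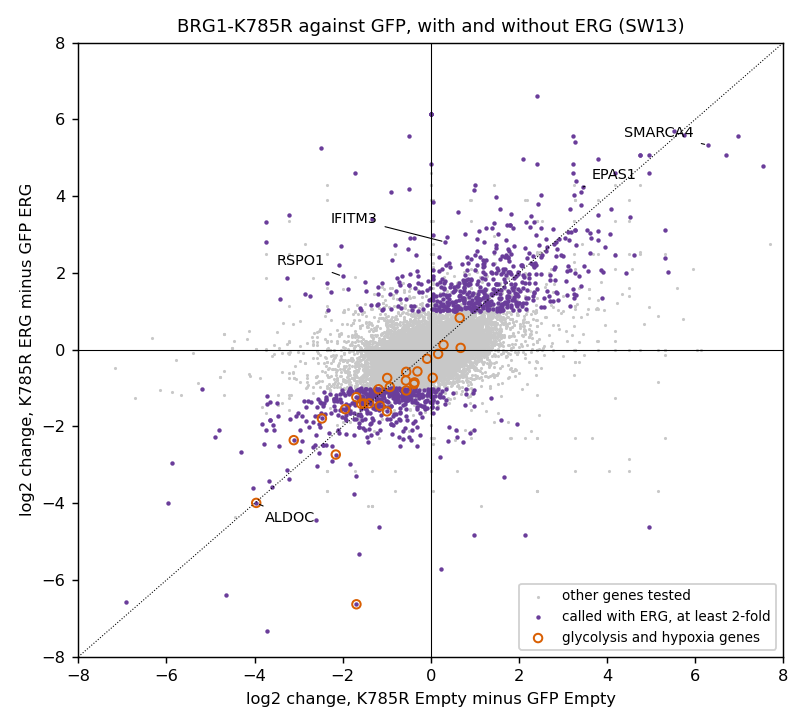
Log2 change with BRG1-K785R against GFP, without ERG (x axis) and with ERG (y axis), for the genes tested. Purple points are called with ERG at 2-fold or more, orange rings are glycolysis and hypoxia genes, the dotted line marks equal changes, points in rows or columns come from genes with few reads, and genes beyond the axes, such as SRPX2, are not drawn. Most purple points lie at the lower left and upper right, and RSPO1 and IFITM3 lie off the line.

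Where the effect differed with ERG was tested as a difference of the 2 changes. It was called for 6776 genes (39.8%), 2971 (17.5%) upward, meaning a more positive change with ERG (a larger rise, a smaller fall or a turn from fall to rise), and 3805 (22.4%) downward, so that 43.8% of the called differences were upward, and 59.8% with library totals as the scale. The BRG1-K785R libraries without ERG stood apart, with MALAT1, a nuclear-retained RNA, at 88.8 and 94.2 CPM against 916 and 808 with GFP and no ERG. In the ERG groups it stood at 1274 and 1121 CPM with GFP and 994 and 1257 with BRG1-K785R. There a list of 4 nuclear-retained RNAs, written after values had been seen, summed to 2458 and 2224 CPM with GFP and 1543 and 2039 with BRG1-K785R. Of the 4, 2 were called lower (50%, where 20% of all genes tested were). The part of this shift in the results was not tested. The mitochondria-like reads of the BRG1-K785R libraries without ERG were low as well (279 and 288 CPM, against 1916 and 1466 with GFP). The part of these libraries in the differences was not tested, and the comparison with ERG gave 3507 higher and 3434 lower genes in a fit without them.

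Of the genes the naming rule takes, RSPO1, a secreted WNT agonist, had the largest upward difference, 3.90 ± 0.18 on the log2 scale (adjusted p = 2.04e-17). It rose from 16.4 and 17 to 57.9 and 67.3 CPM with ERG and fell from 31.5 and 22.3 to 6.53 and 6.96 CPM without it. APLN, with a difference of 3.28 ± 0.37, stood at 1.18 and 1.32 CPM with GFP and 0.867 and 1.09 with BRG1-K785R without ERG (-0.37 ± 0.32, adjusted p = 0.33). MALAT1 (3.15 ± 0.19) and PMCH (2.80 ± 0.25) were the next. Downward, RMRP (-5.45 ± 1.01), HRNR (-2.86 ± 0.31), NID1, a basement membrane protein (-2.86 ± 0.31), and CHAC1, a glutathione-degrading ATF4 target (-2.61 ± 0.36), had the largest differences. IFITM3 (2.47 ± 0.39) and KRT18 (1.89 ± 0.32) rose more with ERG. SPARC (4.28 ± 0.56) rose with ERG and fell without it, from 0.997 and 0.578 to 0.124 and 0.247 CPM (-2.08 ± 0.52, adjusted p = 0.000879). The ATF4 list had 14 of 22 members with a downward difference and 2 with an upward one, where 22.4% and 17.5% of all genes tested had one. In the comparison without ERG, 18 of 22 were higher and 2 lower (median 1.14), where 32.3% and 26.4% of all genes tested were. Glycolysis and hypoxia genes had 3 upward and 8 downward differences among 27, with 16 not called, where 17.5% and 22.4% of all genes tested had one.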

How the data were processed

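PolyA RNA of SW13 cells had been read as 75 base single-end reads. Each library came as a table of 26346 genes with read counts and RPKM values made by the authors. The deposited counts are whole numbers and were tested, and the deposited RPKM values entered no test. STAR 2.3.1 and hg19 are named per the submitters' processing notes. Which program counted reads, on which annotation and strand, is not given in the sources used here.

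All 12 SW13 libraries in 6 groups were fitted together with edgeR 4.0.16 (R 4.3.3, limma 3.58.1), with TMM factors of 0.91 to 1.07 and filterByExpr, leaving 17018 genes, 6 residual degrees of freedom and a common biological coefficient of variation of 0.0571. Contrasts used the two-sided quasi-likelihood F test with Benjamini-Hochberg adjustment and a threshold of 0.05. Scripts were tested on simulated data. An SE is the size of the log2 change over the root of F. P-values rest on 2 separate infections a group.

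Named genes are the targets, the largest rises and falls by the naming rule and up to 4 list members by adjusted p. That rule takes 12 a direction (4 in other comparisons) among calls whose mean reached 5 CPM. Clone, antisense and small RNA names are left out. Libraries must not overlap, except for the difference with and without ERG, which has no such condition. Other list members were chosen after their values were seen. Members and lists were chosen with earlier results of these data known.

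Motifs were sought on both strands in RefSeq windows (GRCh38.p14), and a gene holds one if any window of its symbol does. Symbols of 23608 genes matched RefSeq. Alternatives were RLE scaling, library totals, no count filter, DESeq2 1.42.0, the compared groups alone, a replicate block and leaving out libraries. Figures used matplotlib 3.10.9 under Python 3.11.15, with numpy 2.4.6 and pandas 2.3.3.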

Additional observations from a re-analysis of the deposited data

Results flagged for a closer look

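For each gene below the BRG1-K785R effect differed between cells with and without ERG by edgeR's test of the difference, adjusted over all genes tested. Values are the log2 change with ERG minus that without, from 2 libraries a group. All share the BRG1-K785R Empty libraries, which stand apart in nuclear-retained and mitochondria-like RNA.

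RSPO1 (3.90), the matrix gene SPARC (4.28) and the mitochondria-like copy MTRNR2L8 (4.30) rose with ERG and fell without it. PMCH (2.80), the nuclear-retained MALAT1 (3.15) and TEK (0.92) fell without ERG and were not called with it. APLN (3.28) and the interferon-induced IFITM3 (2.47) rose with ERG and were not called without it. IFITM2 (1.99), the keratins KRT18 (1.89) and KRT8 (1.51), ENC1 (1.05) and JUN (0.39) rose in both and more with ERG. Genes that fell in both and less with ERG were SSPO (1.45), RAB26 (1.38), PI15 (1.22), ISG15 (0.56), SYP (0.46), CHGB (0.37), SEMA3D (0.41) and DUSP6 (0.28). Small upward differences were found for the cell cycle genes CCNE2 (0.70) and E2F1 (0.59), the Polycomb gene EZH2 (0.55), NOG (0.60) and IDI1 (0.77).

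In the hypoxia lists the differences went both ways. MIR210HG (1.96), PDK1 (0.76), BNIP3 (0.68), P4HA1 (0.40) and EGLN1 (0.28) fell less with ERG, and GAPDH (-0.78), SLC2A1 (-0.61), PFKFB4 (-0.57) and LDHA (-0.31) had lower changes with ERG.

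Downward differences were found for RMRP (-5.45), HRNR (-2.86), NID1 (-2.86), HRC (-1.59), RGS4 (-0.82), SMOX (-1.08) and AXL (-1.14). In the stress lists they were in CHAC1 (-2.61), HSPA1A (-1.41), HSPB1 (-1.06), DDIT3 (-0.88), HERPUD1 (-0.86) and ATF4 (-0.54). Among chromatin genes they were in ARID1A (-1.06), ACTB (-1.05), SMARCA4 (-0.97) and SMARCB1 (-0.41). Signalling genes with a downward difference were SPRED2 (-1.11), SPRY4 (-0.79), ETV5 (-0.69), MYC (-0.64), SMAD7 (-0.60), CTGF (-0.42) and ETV4 (-0.35). JUP (-1.21), MMP10 (-0.84), VIM (-0.83), MKI67 (-0.80), SREBF1 (-0.64) and COL3A1 (-0.29) complete them.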

How the results depend on the processing

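Counts of called genes moved by less than 1.5 times under every alternative run, in all 4 comparisons and both directions. With ERG, 3483 genes were higher and 3404 lower, and these counts were 4242 and 2832 with library totals as the scale, 3203 and 3591 with no filter on low counts, 2995 and 3075 with DESeq2, and 3351 and 3502 without all 4 Empty libraries of GFP and BRG1-K785R (chosen after seeing the data). Without 1 library, 2359 to 2863 were higher and 2546 to 3069 lower, with 69.9% to 78% of calls kept and 0 called the opposite way. Labels give separate infections to equal numbers, and deviations of same-numbered libraries had r = -0.046 for GFP ERG with BRG1-K785R ERG, 0.12 for BRG1-K785R ERG with BRG1 ERG and -0.0982 to 0.0887 for the other 13 pairs of groups, so the numbers were not taken to pair libraries. With the replicate number as a block, 3454 were higher and 3409 lower. Of the differences with and without ERG, 59.8% of called genes were upward with library totals as the scale and 43.8% with TMM. Of 1526 values for single genes, 10 lost their call (SMARCA2 and NDRG1, given above) and 0 changed sign. Of 864 counts of list members 87 moved by over 1.5 times, mostly counts of few members. Depth limits genes with few reads, such as SMARCA2 and CA9.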

Other observations

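Lists of signalling genes moved in part with BRG1-K785R beside ERG. Of 27 TGF-beta and BMP pathway genes, 12 were higher and 5 lower (3 without BRG1-K785R ERG replicate 2), where 20.5% and 20% of all genes tested were. LTBP1, which stores latent TGF-beta in the matrix, rose from 4.77 and 6.06 to 17 and 14.8 CPM (1.55 ± 0.14), the inhibitor NOG from 3.4 and 3.76 to 8.56 and 9.6 CPM (1.34 ± 0.15) and the feedback gene SMAD7 from 10.9 and 10.3 to 22.3 and 21.1 CPM (1.04 ± 0.11). Of 20 YAP and SRF targets, 6 were higher and 10 lower (6 without GFP ERG replicate 2), 30% and 50% against those shares. CTGF fell from 1984 and 2029 to 874 and 865 CPM (-1.21 ± 0.07) and the receptor kinase AXL from 4.49 and 4.31 to 0.643 and 0.477 CPM (-2.96 ± 0.25), while CYR61, a relative of CTGF, rose from 28.5 and 29.6 to 56 and 55.2 CPM (0.94 ± 0.08).

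Of 30 axon guidance genes, 7 were higher and 9 lower (23.3% and 30%, against 20.5% and 20% of all genes tested). SEMA3D, a secreted semaphorin, fell from 423 and 437 to 177 and 154 CPM (-1.38 ± 0.08), and EPHA2, an ephrin receptor, rose from 94.5 and 89.3 to 154 and 154 CPM (0.74 ± 0.08). Of 33 HOX cluster genes 15.2% were higher and 6.06% lower, of 27 ribosomal protein genes 3.7% and 14.8%, and of 30 nuclear-encoded oxidative phosphorylation genes 23.3% and 16.7%.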
